A study of Macaca mulatta with 24 samples.

Results

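The probe sets of the nuclear-encoded subunits of oxidative phosphorylation were described by complex in the lateral geniculate nucleus (LGN) of rhesus macaques (Macaca mulatta) after monocular deprivation. Members were the probe sets with a single gene symbol that begins with the prefix of a complex I, III, IV or V gene family or names a succinate dehydrogenase subunit or CYC1. The annotation gave 108 such probe sets for 65 genes among 52766 probe sets and 14132 symbols on the array. A signal of 100 or more on at least 1 array was reached by 104 of them, again for 65 genes, among 37623 probe sets tested. Complex I held 41 probe sets (24 genes), complex II 4 (3 genes), complex III 13 (7 genes), complex IV 13 (10 genes) and complex V 23 (14 genes), or 94 in all. The other 10 probe sets (7 genes) belong to assembly factors of complex I and to ATP5IF1, the inhibitor of ATP synthase, and were kept apart. NDUFA4 and NDUFA4L2 were counted with complex IV, where NDUFA4 is now placed, and CYC1 with complex III. A further 12 probe sets carried a symbol of these families beside other symbols, among them those of COX4I1 and COX6A1, and were not analysed here, nor were SDHD and the subunits encoded by mitochondrial DNA.

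Each array held 1 LGN layer, captured by laser from stained sections and pooled over several sections. There were 24 arrays from 2 animals, with both LGNs of each animal and 6 layers of each LGN. The left eye of both animals was deprived of form vision from birth, in 1 animal with an opaque contact lens for 2 months and in the other by closing the lids for 4 months. Duration, method and animal can therefore not be told apart, and both animals carried a deprived eye, so that the nondeprived layers of the same LGNs served as the controls. Layers 1 and 2 are magnocellular (M) and layers 3 to 6 parvocellular (P). Layers 2, 3 and 5 on the side of the deprived eye and layers 1, 4 and 6 on the opposite side were deprived. This gave 8 deprived and 8 nondeprived P layers and 4 of each M group. The layers are separate samples of 2 animals, so p-values measure the spread between layers and not between animals.

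Complexes I to IV form the respiratory chain of the inner mitochondrial membrane. Complex I takes electrons from NADH and complex II, succinate dehydrogenase, takes them from the citrate cycle. Complex III passes them to cytochrome c and complex IV, cytochrome c oxidase, passes them to oxygen, while complexes I, III and IV pump protons. Complex V, ATP synthase, uses the proton gradient to make ATP. Neurons depend on this pathway, and staining for cytochrome oxidase and succinate dehydrogenase has long been used to show activity in the layers of the visual pathway. The genes measured here are the nuclear part of complexes that also hold subunits made in the mitochondria.

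Values were linear array signals, scaled by the authors to the same trimmed mean on each array, and a log2 difference below is that of the log2 signals. Between 40.6% and 57.1% of probe sets reached 100 on an array. The array of M deprived layer 2 (ipsilateral, 2 months) stood apart, with a ratio of 3' to 5' GAPDH signal of 50.8 against 1.97 to 14.3 on the other 23 and a mean correlation with the others of 0.811. In P layers this ratio ran from 2.65 to 7.88 in deprived and from 1.97 to 6.06 in nondeprived layers. Within every LGN its mean was higher in deprived than in nondeprived P layers. A fit with the ratio as a covariate was among the alternatives given below. Marker genes of neurons such as SYT1 and STMN2 were among the bright probe sets, and CAMK2A, a koniocellular marker, had a signal between 4.08 and 175 in all groups. It was the only 1 of 2 listed koniocellular markers measured. The paper lists CAMK2A with a positive fold change by array and by qRT-PCR, so the low signal does not show that the gene was absent.

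Subunits had lower signals in deprived than in nondeprived P layers more often than the array as a whole, by small amounts and least often in complexes IV and V. Few passed the test on their own. The log2 difference was negative for 79 of 104 members and for 51.3% of all probe sets tested. The difference was negative for 35 of 41 probe sets of complex I, 3 of 4 of complex II and 12 of 13 of complex III. For complexes IV and V it was negative for 9 of 13 and 13 of 23. Its median was -0.19 over complex I, -0.20 over complex II, -0.17 over complex III, -0.044 over complex IV and -0.057 over complex V, beside -0.0088 over all probe sets tested. By the brightest probe set of each gene, 10 of 14 genes of complex V were negative, with a median of -0.12. The medians of complexes IV and V moved with single arrays. Without 1 array at a time complex IV ran from -0.096 to 0.015 and complex V from -0.085 to -0.013, with the upper end of both reached without nondeprived layer 3 (contralateral, 4 months), and without deprived layer 4 (contralateral, 4 months) complex IV stood at 0.0071. With limma and Benjamini-Hochberg adjustment over all probe sets, 1 member was higher, where 0.585% of all probe sets were called higher, and 2 members were lower, where 0.385% were called lower. At an unadjusted p under 0.05, 23 members were lower and 6 higher. Of all 37623 probe sets tested, 1966 were lower and 2336 higher at that p, or 11.4% in either direction. In bulk RNA of a layer, fewer cells of a type and less RNA per cell cannot be told apart.

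The direction was more regular than the calls. Within each LGN the mean of the 2 deprived P layers was set against that of the 2 nondeprived P layers. The difference was negative in 4 of 4 LGNs for 34 of 104 members (32.7%), against 9.86% of all probe sets tested, and positive in 4 of 4 for 6 (5.77%), against 10.7%. Complex I had the largest such share, with 18 of 41 probe sets (43.9%), followed among the complexes by complex III with 4 of 13 (30.8%), complex II with 1 of 4, complex V with 5 of 23 (21.7%) and complex IV with 2 of 13 (15.4%). These shares are descriptions and their differences were not tested. The members are bright on these arrays. Among all probe sets whose mean signal reached 1000, 16.4% were lower in 4 of 4 LGNs and the median was -0.020, and among the 69 members as bright the share was 36.2% and the median -0.16.

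**Figure D1:**
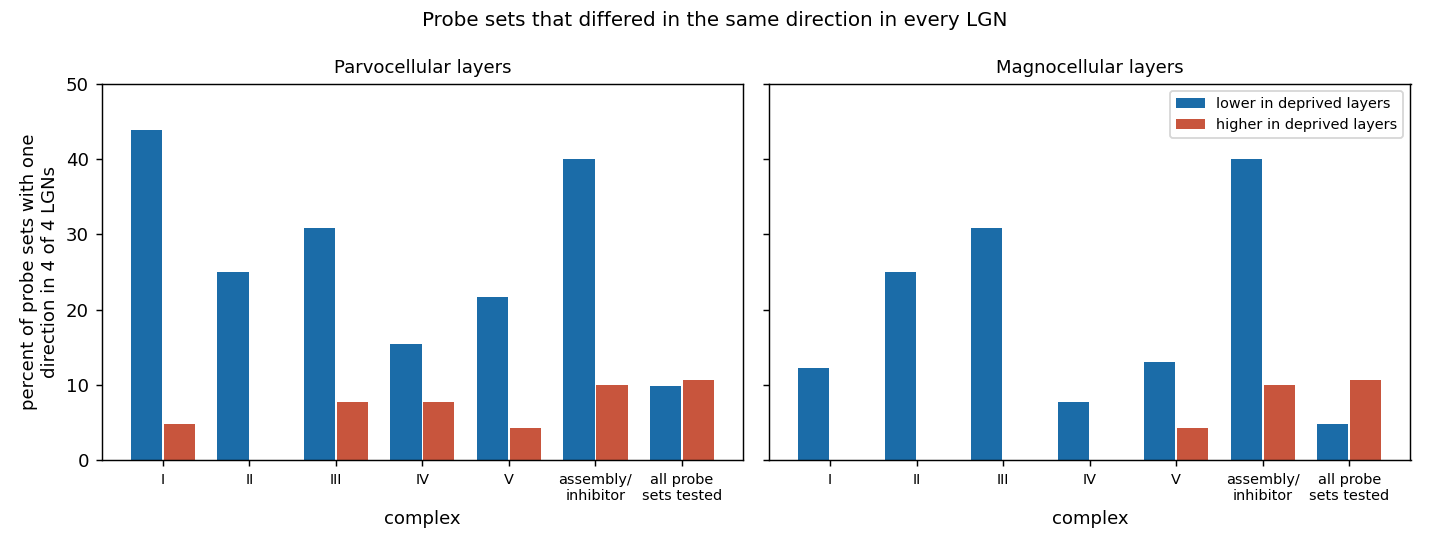
Percent of the probe sets of each complex, and of all probe sets tested, whose difference between deprived and nondeprived layers was negative (blue) or positive (red) in 4 of 4 LGNs, in P layers (left) and M layers (right). In P layers the bar for lower signals stands at 43.9% for complex I and at 9.86% for all probe sets, and the bar for higher signals at 4.88% and 10.7%.

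The medians of complex I were negative in every LGN, at -0.14 and -0.096 in the ipsilateral and contralateral LGN of the animal deprived for 2 months and at -0.27 and -0.29 in those of the animal deprived for 4 months. The medians of complex III ran from -0.078 to -0.25, also all negative. Complex IV stood at 0.0033 and 0.097 after 2 months and at -0.089 and -0.20 after 4 months, and complex V at -0.065, 0.020, -0.17 and -0.22 in the same order. Complex IV was thus above 0 in both LGNs of the first animal, complex V was on either side of 0 there, and both were below 0 in both LGNs of the second. Over all probe sets tested the 4 medians lay between -0.062 and 0.086.

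**Figure D2:**
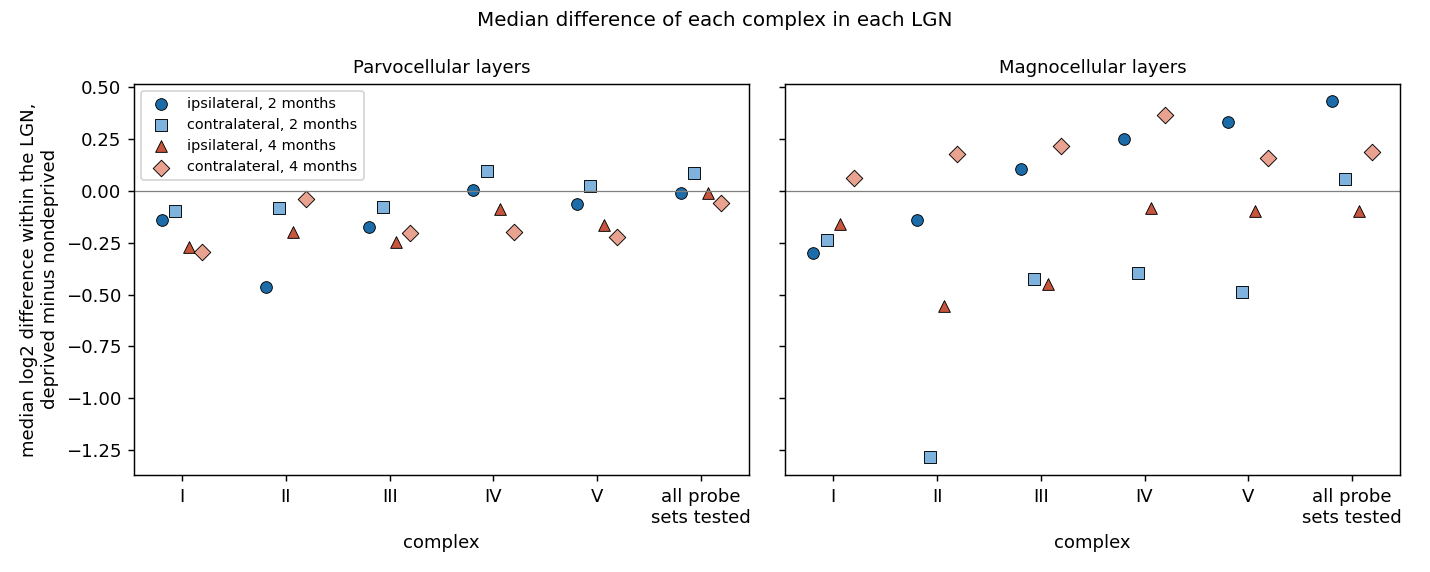
Median log2 difference between deprived and nondeprived layers over the probe sets of each complex and over all probe sets tested, with 1 point for each of 4 LGNs, in P layers (left) and M layers (right). In P layers all 4 points of complexes I, II and III lie below 0, and in M layers each complex has points on both sides of 0.

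Complex I has a matrix arm, which binds NADH and carries the iron-sulfur clusters, and a membrane arm. Of 26 probe sets for the 14 matrix-arm genes measured, 23 were negative in P layers, with a median of -0.24, and 14 were negative in 4 of 4 LGNs. Of 15 for the 10 membrane-arm genes, 12 were negative, with a median of -0.15, and 4 in 4 of 4 LGNs. The arms were set apart after the values were seen, and the difference between them was not tested.

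NDUFA6, an accessory subunit of the matrix arm, had 5 probe sets, all with a negative difference in P layers. The one called lower (MmugDNA.42509.1.S1_at) had signals from 783 to 1400.2 with a median of 999.9 in the 8 deprived P layers and from 1060.3 to 1706 with a median of 1378 in the 8 nondeprived ones. The groups overlapped, through the highest deprived layer. The difference was -0.46 ± 0.11 (SE), adjusted p = 0.0435 by limma, and negative in 4 of 4 LGNs. A dimmer probe set of NDUFA6 (MmugDNA.24266.1.S1_at) ran from 357 to 447 with a median of 401 in deprived and from 456 to 569 with a median of 524 in nondeprived P layers. It was the 1 member whose P groups did not overlap, as was so for 0.0718% of all probe sets in this direction and 0.093% in the other, and its difference was -0.37 ± 0.11 (SE), adjusted p = 0.143. The brightest NDUFA6 probe set showed a smaller difference of -0.19 ± 0.078 (SE), adjusted p = 0.336.

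NDUFS7, a core subunit that holds the last iron-sulfur cluster of the arm, was called higher through its dimmer probe set (MmugDNA.32914.1.S1_at), with signals from 412 to 763 with a median of 553 in deprived and from 263 to 480.4 with a median of 365 in nondeprived P layers, a difference of 0.67 ± 0.16 (SE), adjusted p = 0.0418. Its brighter probe set (MmugDNA.33274.1.S1_at) pointed the other way, from 7296 to 14993 with a median of 9963 in deprived and from 10771 to 14165 with a median of 12900.0 in nondeprived layers, with a difference of -0.27 ± 0.13 (SE), adjusted p = 0.419. Each direction was seen in 4 of 4 LGNs. The groups overlapped for both, and the 2 probe sets disagreed on the gene. Among the 29 genes with several probe sets, UQCRC1 of complex III also had both directions, each in 4 of 4 LGNs. Probe sets differed in sign in P layers for NDUFS6, NDUFV2, SDHC, COX5A, ATP5F1B, ATP5F1C, ATP5F1E and ATP5PO as well.

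NDUFA9, at the junction of the arms, and NDUFV2, a core subunit next to the site of NADH oxidation, came close to the threshold. NDUFA9 ran from 3668 to 6013 with a median of 4752 in deprived and from 5668 to 8409 with a median of 6439 in nondeprived P layers, a difference of -0.48 ± 0.12 (SE), adjusted p = 0.0672. NDUFV2 ran from 5290.2 to 7277 with a median of 6056 and from 6353 to 8583 with a median of 7527, a difference of -0.33 ± 0.080 (SE), adjusted p = 0.0533, while its dimmer probe set stood at 0.20. Both probe sets were negative in 4 of 4 LGNs, and in each the lowest nondeprived layer lay below the highest deprived layer. Other subunits of the matrix arm had differences of -0.31 (NDUFA2), -0.38 (NDUFS8), -0.16 (NDUFS3) and -0.15 (NDUFS1), with adjusted p between 0.332 and 0.531. In the membrane arm NDUFA10 stood at -0.25, NDUFB4 at -0.27 and NDUFB2, the brightest probe set of complex I, at 0.036.

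**Figure D3:**
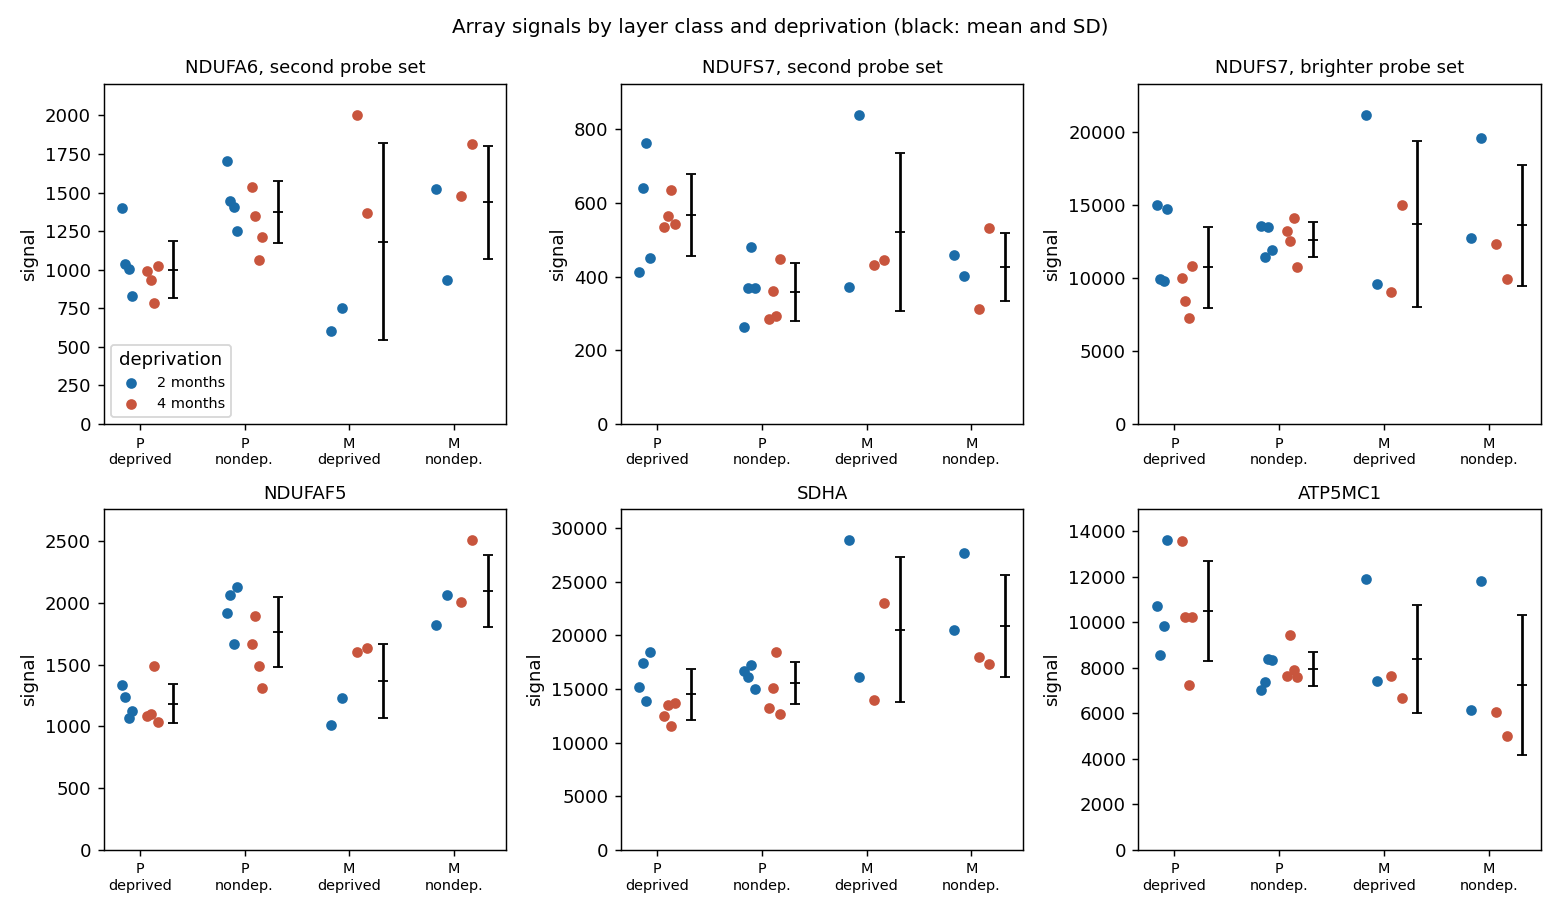
Array signals of the members called in a comparison, the brighter NDUFS7 probe set and ATP5MC1, by layer class (P, M) and deprivation, with arrays of the animal deprived for 2 months in blue and for 4 months in red and the group mean and SD in black. Deprived P layers lie mostly below nondeprived ones for NDUFA6 and NDUFAF5, the 2 NDUFS7 probe sets differ in opposite directions, and SDHA is higher in most M layers.

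In complex II, SDHB, the iron-sulfur subunit, ran from 2107 to 4043 with a median of 3392 in deprived and from 3294 to 4520.4 with a median of 3852 in nondeprived P layers, a difference of -0.29 ± 0.11 (SE), adjusted p = 0.301. SDHC, a membrane anchor, stood at -0.29 ± 0.20 (SE), adjusted p = 0.657, and its second probe set reached 100 on 2 arrays of 24. SDHA, which carries the flavin and oxidizes succinate, stood at -0.11 ± 0.098 (SE), adjusted p = 0.772. All 3 genes thus had a negative difference in P layers by their brightest probe set, and none passed the test. The dim second probe set of SDHC stood at 0.043.

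In complex III, 12 of 13 probe sets and, by the brightest probe set of each gene, 7 of 7 genes had a negative difference in P layers. The values were -0.26 for UQCRFS1, the Rieske iron-sulfur protein, -0.21 for UQCRC1 and -0.17 for UQCRC2, the core proteins, -0.19 for UQCRQ and -0.081 for cytochrome c1 (CYC1). None passed, with the smallest adjusted p at 0.336. The 3 probe sets of UQCRC1 disagreed, at -0.21, -0.37 and 0.36, each in 4 of 4 LGNs.

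Complex IV showed less of a shift. COX6B1, whose subunit lies where the monomers of the dimer meet, ran from 16184 to 35082 with a median of 25066 in deprived and from 21480.5 to 29714 with a median of 25266 in nondeprived P layers, a difference of -0.040 ± 0.098 (SE), adjusted p = 0.932, and COX5A stood at -0.029. NDUFA4 was negative in 4 of 4 LGNs, from 7046 to 8764 with a median of 7525 in deprived and from 8012 to 10966 with a median of 8925 in nondeprived layers, with a difference of -0.23 ± 0.092 (SE), adjusted p = 0.293. COX7B stood at -0.29 ± 0.12 (SE), adjusted p = 0.362. The isoforms of subunit 7a differed in sign. COX7A1, the isoform known from heart and muscle, ran from 1117 to 4149 with a median of 1953 in deprived and from 1214 to 1971 with a median of 1465 in nondeprived P layers with a positive difference in 4 of 4 LGNs, 0.40 ± 0.17 (SE), adjusted p = 0.341, whereas COX7A2, the common isoform, stood at -0.088 ± 0.079 (SE), adjusted p = 0.764. The difference between the 2 isoforms was not tested, and the highest COX7A1 signal, of deprived layer 6 in the contralateral LGN at 2 months, lay far from the others. COX4I2, the lung isoform of subunit 4, COX6A2, the muscle isoform of subunit 6a, and NDUFA4L2, a relative of NDUFA4, reached a signal of 100 on 3, 1 and 12 arrays of 24, and no difference could be read from them.

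Complex V was divided by part as complex I was, after the values were seen, and differences between its parts were not tested. The c-ring, whose subunit is made from several genes that differ in their import sequence, had a median of 0.19 over 6 probe sets, and 2 of 6 were negative. That median rested on both probe sets of ATP5MC1 and a dim one listed as ATP5G1, given below, and does not describe the c-ring genes as a group. The F1 head and central stalk stood at -0.12 over 8, the peripheral stalk at -0.017 over 6, and ATP5MG and ATP5MJ, small membrane subunits, at -0.29 over 3, all negative in 4 of 4 LGNs. ATP5MC1, a c-ring gene, had a positive difference near the threshold. Its signals ran from 7244 to 13595 with a median of 10229 in deprived and from 7037 to 9421 with a median of 7754 in nondeprived P layers, a difference of 0.38 ± 0.11 (SE), adjusted p = 0.097, and a second probe set gave 0.38 ± 0.16 (SE), adjusted p = 0.349. The other c-ring genes stood at -0.011 (ATP5MC2) and -0.16 (ATP5MC3). A gene listed as ATP5G1, an older name whose link to ATP5MC1 could not be settled here, stood at 0.0031 by its brighter probe set. Its dimmer probe set, with a mean signal of 58.5, stood at 0.43. Below 0 lay ATP5F1C, the gamma subunit of the rotating stalk, at -0.26 ± 0.090 (SE), adjusted p = 0.218, ATP5MG at -0.31 ± 0.11 (SE), adjusted p = 0.202 and ATP5PO, a stator subunit, at -0.21 ± 0.082 (SE), adjusted p = 0.282, each negative in 4 of 4 LGNs. Dimmer probe sets of ATP5F1C and ATP5PO pointed up, at 0.32 and 0.27, and another of ATP5PO stood at -0.17.

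Of the assembly genes, NDUFAF5, a methyltransferase that acts on complex I during assembly, was called lower. Its signals (MmugDNA.35467.1.S1_s_at) ran from 1032 to 1493 with a median of 1109 in deprived and from 1311 to 2126 with a median of 1783 in nondeprived P layers, a difference of -0.57 ± 0.11 (SE), adjusted p = 0.019, a second probe set from the same cluster gave -0.50 ± 0.15 (SE), adjusted p = 0.124, and one from elsewhere (MmugDNA.20636.1.S1_at) stood at -0.058. NDUFAF6 ran from 484 to 673 with a median of 609 in deprived and from 652 to 904 with a median of 766 in nondeprived layers, a difference of -0.35 ± 0.11 (SE), adjusted p = 0.148, with a narrow overlap of the groups. NDUFAF2 and NDUFAF3 stood at -0.24 and -0.29. ATP5IF1, which blocks ATP hydrolysis by ATP synthase, stood at 0.33 ± 0.13 (SE), adjusted p = 0.302, with a second probe set at 0.013. The calls of NDUFA6, NDUFS7 and NDUFAF5 ended without the LGN as a block, with arrays scaled to the same median and with either animal alone. All 3 also ended with the layer number as the block and without a trend in eBayes. With the GAPDH ratio as a covariate, NDUFA6 (limma adjusted p = 0.0769) and NDUFS7 (0.114) lost their calls and NDUFAF5 (0.0305) kept its own. NDUFS7 also lost its call after quantile normalization and with signals under 50 set to 50. The call of NDUFA6 ended without any 1 of 14 of the 16 P arrays, that of NDUFS7 without any 1 of 13 and that of NDUFAF5 without any 1 of 3. The differences of all 3 kept their sign.

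**Figure D4:**
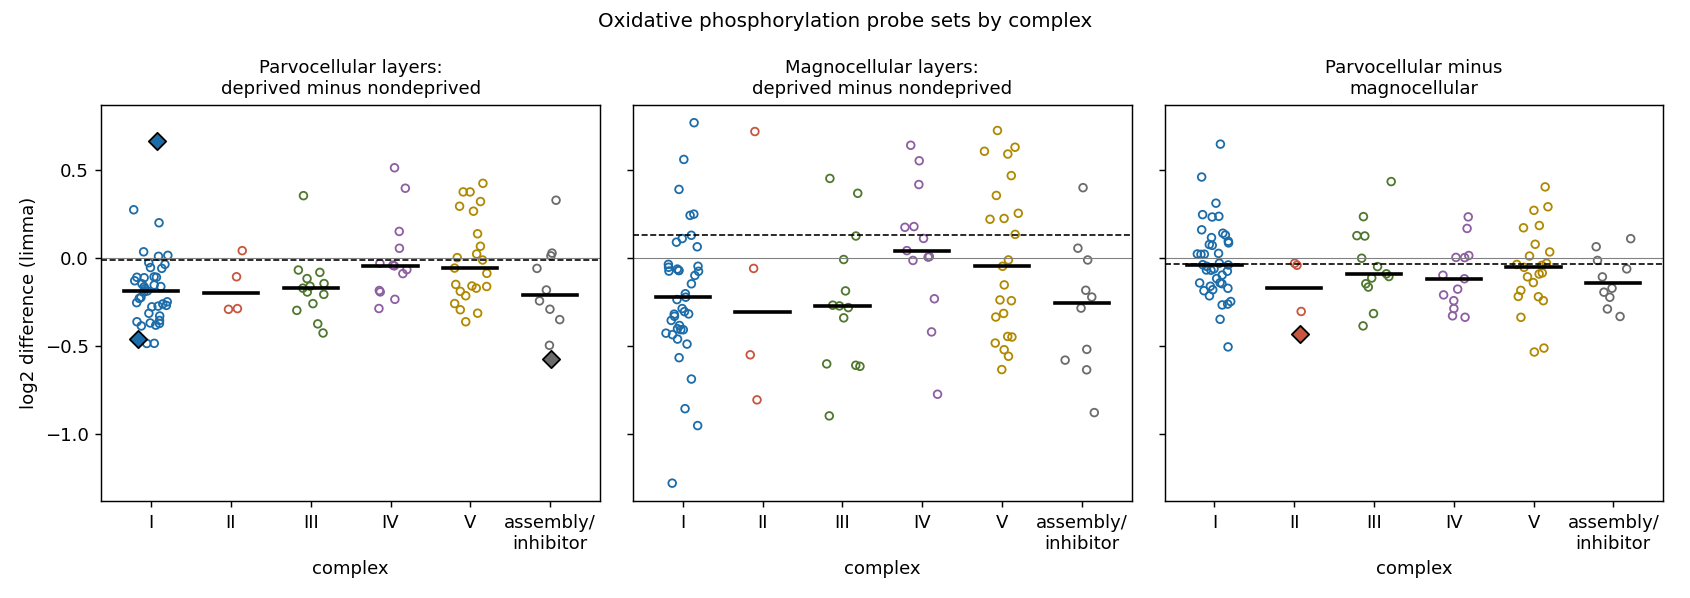
Log2 differences of the 104 members by complex, with 1 point per probe set, filled diamonds for an adjusted p under 0.05, black bars for the median of the complex and a dashed line for the median over all probe sets tested, for deprivation in P layers (left), deprivation in M layers (middle) and P minus M layers (right). In P layers 35 of 41 points of complex I and 12 of 13 of complex III lie below 0.

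In M layers no member was called, and 0% of all probe sets tested were called in either direction. At an unadjusted p under 0.05, 9 members were lower and 1 higher, where 647 of all 37623 probe sets were lower and 1491 higher (5.68% in either direction). The fit by eBayes without a trend also called no member. The log2 difference was negative for 70 of 104 members and for 39.9% of all probe sets, whose median was shifted up to 0.13. Against that shift the medians were -0.22 for complex I, -0.30 for complex II, -0.27 for complex III, 0.043 for complex IV and -0.046 for complex V. Members with a negative difference in both P and M layers numbered 61 of 104 (58.7%), among them 28 of 41 for complex I, against 25.3% of all probe sets tested. The 2 comparisons use different arrays of the same animals. The share follows in part from the separate shift of each comparison, and was not computed for probe sets as bright as the members.

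The members split by brightness in M layers. The 69 members with a mean signal of 1000 or more had a median of -0.28 and 59 negative differences (85.5%), against -0.082 and 59.3% for all probe sets as bright, and the 35 dimmer members had a median of 0.18 and 11 negative differences. A negative difference in 4 of 4 LGNs was found for 18 members (17.3%), against 4.82% of all probe sets and 10.9% of those with a mean signal of 1000 or more, and a positive one for 2 (1.92%), against 10.6% of all. The LGNs differed widely. Complex I stood at -0.30, -0.24, -0.16 and 0.060 in the order given for P layers, complex III at 0.10, -0.43, -0.45 and 0.22, complex IV at 0.25, -0.39, -0.083 and 0.36 and complex V at 0.33, -0.49, -0.099 and 0.16. Over all probe sets the values were 0.43, 0.057, -0.100 and 0.19. The highest of these came from the LGN of the array that stood apart. Without that array the medians were -0.14 for complex I, -0.43 for complex III and 0.055 for all probe sets, and the part of the array in the result was not tested further.

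The signals of deprived and nondeprived M layers did not overlap for 6 members, all lower, where 1.29% of all probe sets did so downwards and 2.78% upwards. They were NDUFA10, NDUFS3, UQCRB (by a probe set at or below 120 in deprived layers), ATP5PO, NDUFAF5 and NDUFAF6. NDUFS3, a core subunit of complex I, had signals of 7429, 10300.3, 8757 and 10646 in deprived M layers and 14745, 12073, 13534 and 11484 in nondeprived ones, a difference of -0.49 ± 0.25 (SE), adjusted p = 0.836. NDUFA10 had 8591, 6691, 5837 and 8279 against 10406, 11191, 8941 and 8709, a difference of -0.43 ± 0.24 (SE), adjusted p = 0.836. NDUFAF5 had 1008, 1229, 1602 and 1632 against 1819, 2063, 2004 and 2507, a difference of -0.64 ± 0.25 (SE), adjusted p = 0.836, and NDUFAF6 had 513, 672, 716 and 876 against 1043, 877, 951 and 1045, a difference of -0.52 ± 0.28 (SE), adjusted p = 0.836. By the same probe sets these genes had negative differences in P layers, where NDUFAF5 was called. Other probe sets of NDUFA10 and NDUFAF5 stood at 0.56 and 0.40 in M layers, the latter positive in 4 of 4 LGNs.

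Differences in M layers were also wide for NDUFA9, 1428, 2924, 5499 and 5570.2 in deprived against 7656, 6619, 6948 and 5095 in nondeprived layers (-0.95 ± 0.38 (SE), adjusted p = 0.836), and for SDHC, 483, 839, 603 and 1163 against 826, 1924, 1227 and 1362 (-0.81 ± 0.28 (SE), adjusted p = 0.836). The lowest deprived value of NDUFA9 was that of the array that stood apart. UQCRFS1 and UQCRC2 stood at -0.60 and -0.61, NDUFB4 at -0.69, ATP5F1C at -0.63 and ATP5MG at -0.56. COX7A1 and both ATP5MC1 probe sets had positive differences of 0.55, 0.26 and 0.61, as in P layers, while the 2 probe sets listed as ATP5G1 differed in sign in M layers. The difference of the deprivation effect between P and M layers was tested in 1 model over all arrays. No member passed, with 0% of all probe sets called, and 2 members (0 upwards) had an unadjusted p under 0.05. Of all 37623 probe sets, 1782 did so downwards and 758 upwards (6.75% in either direction).

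Differences between layer classes were small. P minus M, averaged over deprived and nondeprived layers, had a median of -0.039 for complex I, -0.17 for complex II, -0.089 for complex III, -0.12 for complex IV and -0.052 for complex V, against -0.031 for all probe sets and 0.027 for those with a mean signal of 1000 or more. A single member (1) was lower in P layers, with 1.35% of all probe sets called lower, and 0 were higher, with 2.25% called higher. At an unadjusted p under 0.05, 14 members were lower and 4 higher, where 2818 of all 37623 probe sets were lower and 3340 higher (16.4% in either direction). A difference of 1 sign in 4 of 4 LGNs was found for 15 members downwards (14.4%, against 12% of all probe sets) and 3 upwards (2.88%, against 10.6%).

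SDHA was the member called. Its signals ran from 11568 to 18407 with a median of 13759 in deprived P and from 12658 to 18457 with a median of 15591 in nondeprived P layers, and were 28853, 16148, 13996 and 22996 in deprived M and 20499, 27658, 17942 and 17334 in nondeprived M layers. The classes overlapped, and the difference was -0.43 ± 0.11 (SE), adjusted p = 0.023, negative in 4 of 4 LGNs. It lost its call without M deprived layer 2 ipsilateral at 2 months (adjusted p = 0.0559), without M nondeprived layer 2 contralateral at 2 months (adjusted p = 0.0808) or without M deprived layer 1 contralateral at 4 months (adjusted p = 0.0748), when the fit held the GAPDH ratio of each array (adjusted p = 0.202), without the LGN block (adjusted p = 0.0649), with arrays scaled to the same median (adjusted p = 0.0757), without a trend in eBayes (adjusted p = 0.0614) and in the animal deprived for 2 months (adjusted p = 0.220) or 4 months (adjusted p = 0.300) alone. After quantile normalization it was called with a smaller difference of -0.27. The other complex II genes stood at -0.040 (SDHB) and -0.029 (SDHC).

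Near SDHA came NDUFA4 at -0.29 ± 0.093 (SE), adjusted p = 0.0925, a probe set of ATP5F1E at -0.51 ± 0.17 (SE), adjusted p = 0.111, and one of COX5A at -0.33 ± 0.11 (SE), adjusted p = 0.123, none of which passed. NDUFB7 stood at -0.50, UQCRQ at -0.32, ATP5PD at -0.24 and COX7A2 at -0.18, each lower in P layers in at least 3 of 4 LGNs. In the other direction stood NDUFS1, the largest matrix-arm subunit, at 0.31 ± 0.12 (SE), adjusted p = 0.177, and ATP5MC1 at 0.27 ± 0.13 (SE), adjusted p = 0.274 with a second probe set at 0.41. Of the 2 probe sets listed as ATP5G1, 1 was lower in P layers, in 4 of 4 LGNs. In complex IV 8 of 13 probe sets were lower in P layers, and its median was the lowest of the complexes with over 4 probe sets.

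The deprivation effect in P layers was also compared between the animals deprived for 4 and for 2 months. No member passed and 0% of all probe sets did, while 4 members at an unadjusted p under 0.05 were lower and 2 higher. Of all 37623 probe sets, 862 were lower and 603 higher at that p (3.89% in either direction). The median of the 4-month minus the 2-month effect was -0.12 for complex I, -0.27 for complex IV and -0.17 for complex V, against -0.055 for all probe sets. Complexes II and III stood at 0.0012 and -0.096, and the assembly genes at 0.086. The called genes kept their sign in both animals. NDUFA6 stood at -0.46 after 2 months and -0.46 after 4, NDUFS7 at 0.60 and 0.74 by its dimmer probe set, and NDUFAF5 at -0.70 and -0.44.

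Other genes of mitochondrial energy metabolism were taken from lists. In P layers none of 5 carriers and channels, 19 further assembly factors, 10 citrate cycle genes and 7 regulators of mitochondrial biogenesis passed. Citrate cycle genes had a median of -0.21, with 8 of 10 negative, among them MDH2, malate dehydrogenase, at -0.38 ± 0.11 (SE), adjusted p = 0.104. SUCLG2 went the other way at 0.64 ± 0.20 (SE), adjusted p = 0.152. Carriers had a median of -0.13 and assembly factors of -0.071. In the biogenesis list PPARGC1A and PPARGC1B, coactivators of mitochondrial genes, stood at -0.27 and -0.32 and the other 5 between 0.015 and 0.12, TFAM included. Between classes 1 assembly factor was called lower in P layers, and of the citrate cycle genes 1 was called lower and 1 higher. Of all probe sets tested, 1.35% were called lower and 2.25% higher in that comparison.

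Markers of cell types were set beside the P result, and their relation to it was not tested. All 5 of 5 neuronal markers had a negative difference, with a median of -0.24, and their summed signal ran from 78500.3 to 95036 in deprived and from 82831 to 115251 in nondeprived P layers. The 2 markers of GABAergic neurons measured, the inhibitory neurons of the layers, had positive differences of 0.18 and 0.29. Astrocyte markers had a median of 0.16, with 6 of 8 positive, and a summed signal from 77588 to 110300.0 against 72844 to 101732. GFAP was called higher at 1.07 ± 0.21 (SE), adjusted p = 0.0184, where 0.585% of all probe sets were called higher. Microglial markers had a median of 0.30, all 10 of 10 positive and none called, with a summed signal from 7427 to 10326 against 6339 to 9051, and CX3CR1 among them had a mean signal of 62.4. The 3 oligodendrocyte markers had a median of 0.16 and the 4 endothelial ones of -0.0071. In M layers the neuronal markers had a median of -0.25, with 4 of 5 negative, while the median of their summed signal was 113644 in deprived and 112894 in nondeprived layers. The GABAergic markers stood at 0.39 and 0.81 there, and the astrocyte markers had a median of 0.30. The part of cell composition in the differences of the subunits was not tested.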

How the data were processed

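RNA of single LGN layers, captured by laser and amplified linearly over successive rounds, was hybridised to the Rhesus Macaque Genome Array, 1 layer per array. The authors deposited 1 intensity (signal) per probe set and array, computed with GCOS and scaled to a trimmed mean of 500.04 over the values left after 2% at each end, so the values are not counts and the number of arrays limits the precision. Control probe sets were left out. Probe set names came from the platform annotation: 24956 probe sets had 1 symbol, 361 had several and 27449 had none.

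Signals under 1 were set to 1 and taken to log2. Probe sets with a signal of 100 or more on at least 1 array were tested with limma 3.58.1 in R 4.3.3 (lmFit, eBayes with a trend), with the LGN as a fixed block and Benjamini-Hochberg adjustment over all 37623 at a threshold of 0.05, two-sided. Figures were drawn with matplotlib 3.10.9. The fit was tested on simulated data. Medians of complexes were not tested. The brightest probe set stood for a gene unless another is named. Genes named were those called, those with the smallest p per complex and comparison, isoform families and succinate dehydrogenase, and further ones chosen after their values were seen. The members and lists were chosen with earlier results of these data known. Alternatives changed the scaling, low-signal floor and filter, trend, block, covariate, animals and arrays used.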

Additional observations from a re-analysis of the deposited data

Results flagged for a closer look

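Of 168 groups of 4 or 8 layers examined, 17 held 1 layer far from the others of its group, and chance marks about 1 in 20 groups. No explanation was tested.

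In complexes I and III, NDUFA6 had a signal of 1400 in P deprived layer 3 (ipsilateral, 2 months), where the others ran from 783 to 1040. NDUFS7 had 840 in M deprived layer 1 (contralateral, 2 months), against 373 to 445. CYC1 had 22000 in P nondeprived layer 3 (contralateral, 4 months), against 13300 to 16100.

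Deprived P layer 6 of the contralateral LGN at 2 months was the layer apart for 4 genes. Its signal was 4090 for NDUFB7 (others 794 to 2170), 20300 for CYC1 (others 12800 to 15700), 4150 for COX7A1 (others 1120 to 2390) and 24100 for ATP5MC3 (others 15700 to 17700).

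Nondeprived M layer 2 of the contralateral LGN at 2 months was apart in complex V. Its signal was 11800 for ATP5MC1 (others 5020 to 6130), 775 for ATP5MC2 (others 314 to 383) and 25200 for ATP5MG (others 12800 to 14200). The median of complex V on that array, as log2 signal minus the mean of each probe set over all arrays, was 0.509, where the other 3 arrays ran from -0.016 to 0.027.

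COX7A2 had 8910 in P deprived layer 3 (ipsilateral, 4 months), against 10400 to 11700. ATP5MC2 had 773 in P deprived layer 4 (contralateral, 2 months), against 335 to 506. In P nondeprived layer 3 (contralateral, 2 months) ATP5MC2 had 819, against 295 to 509, and NDUFAF2 had 3040, against 1310 to 2110. ATP5PF had 10900 in M nondeprived layer 2 (contralateral, 4 months), against 13100 to 13500. ATP5PO had 10900 in M deprived layer 2 (ipsilateral, 2 months), the array that stood apart, against 13300 to 13700.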

How the results depend on the processing

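Of 789 counts and medians recomputed under the alternatives, 730 stayed within the limits set for them (the spread between LGNs for a median) and 59 moved. These limits were wide in M layers. For complex IV there the spread was 0.34 and the median 0.043, so a change of sign could stay within the limit. Some medians changed sign under at least 1 alternative: complex IV in P layers (up to 0.050 with the 2-month animal by itself and 0.028 with the GAPDH covariate), complexes II, IV and V in M layers (up to 0.054, down to -0.20 and up to 0.10), and complexes I and II between classes (up to 0.093 and 0.094). In P layers the count of members called higher was 0, not 1, after quantile normalization, with signals under 50 set to 50, with arrays scaled to the same median, without a trend in eBayes, without the replicate block, with the layer number as the replicate block, and with either animal alone. The count called lower was 0, not 2, under the same choices other than quantile normalization and the floor of 50, 4 with signals under 50 set to 50 or a mean signal of 100 or more, and 1 with the GAPDH ratio as a covariate. With that covariate the member called higher was ATP5MC1 and not NDUFS7. Without 1 array at a time it ran from 0 to 3, and the count called higher from 0 to 1. Between classes the count called lower was 0, not 1, with arrays scaled to the same median, without a trend, without the replicate block and with either animal alone, and 0 to 3 without 1 array at a time, where the count called higher ran from 0 to 1. The median of complex I for P minus M was 0.093 in the animal deprived for 2 months alone. In M layers the median of complex I was -0.46 with arrays scaled to the same median, -0.45 at 2 months alone and -0.036 at 4 months alone, and the same scaling gave -0.49 for assembly genes and -0.39 over all subunits. The cause of these changes was not tested.

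Same-numbered layers of the LGNs of an animal deviated together with correlations from 0.0185 to 0.411, not all above 0.1, and were not treated as pairs. Without the replicate block 28 of all probe sets were called in P layers, and with the layer number as the block 133, with 0 members in both. Signals near background, as for COX4I2 and COX6A2, and 2 animals limit what could be detected.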
